A study of Mus musculus with 8 samples.

Results

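Interferon regulatory factors (IRFs) and signal transducers and activators of transcription (STATs) are the transcription factors through which macrophages make and answer interferons and other cytokines. IRF3 and IRF7 switch on the type I interferon genes after a pattern-recognition receptor has fired, IRF5 drives inflammatory cytokine genes, and IRF1 and IRF2 bind shared elements, with IRF2 known mainly as a counterweight to IRF1. STAT2 works with IRF9 downstream of the type I interferon receptor, while STAT3 carries IL-6 and IL-10 signals and STAT6 carries IL-4 signals. Chromatin accessibility at 9 of these genes, Irf1, Irf2, Irf3, Irf5, Irf7, Irf9, Stat2, Stat3 and Stat6, was examined by ATAC-seq, an assay in which a transposase cuts open chromatin and the cuts are counted as sequenced tags.

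The members were all peaks that the deposited tables assigned to one of these 9 genes and placed within 100 kb of its transcription start site (TSS). The table of wild-type (WT) libraries held 9 such peaks of 9698, at 7 of the 9 genes. The table of NCoR f/f libraries held 21 of 24867, at 8 of the 9. Neither table held a peak assigned to Irf3, and Irf9 had peaks in the NCoR f/f table alone.

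All libraries came from bone marrow-derived macrophages (BMDMs), grown with M-CSF from the marrow of C57BL/6 mice that were between 8 and 12 weeks old and kept in low serum before treatment. WT BMDMs were treated for 6 h with vehicle (Veh), with KLA (Kdo2 lipid A, a ligand of the lipopolysaccharide receptor TLR4), or with KLA after RGFP966, an inhibitor of the histone deacetylase HDAC3 that was added with the low serum. The titles of the last pair of libraries name RGFP966, whereas their treatment entries name KLA alone. The fourth group was 6 h Veh in NCoR f/f BMDMs, whose floxed Ncor1 alleles were not cut because no Cre was present, and which served as controls for myeloid NCoR knockouts. Each condition had 2 libraries, and the sources do not say whether these came from separate mice or cultures, so the p-values may measure technical spread only. The comparisons ask how KLA changes accessibility at these loci, and whether HDAC3 inhibition alters the state under KLA.

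Depth was low. The WT libraries held 116733 to 202523 tags in peaks and a median of 10 to 17 tags per peak, and the member peaks held 2 to 29 tags. A count of 2 tags has an exact 95% Poisson interval of 0.242 to 7.22 tags, for counting error only. Of the 7 macrophage marker genes checked, 3 (Csf1r, Itgam and Cd68) had peaks within 100 kb in the WT table and all 7 in the NCoR f/f table, while the T cell, B cell, neutrophil and fibroblast markers had none in either. In such bulk libraries, fewer cells with an open site and a less open site in each cell cannot be told apart.

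Of the 9 WT peaks, 4 lay within 2 kb of a TSS, or 44.4% (Wilson 95% interval 18.9 to 73.3%), against 51.0% of all WT peaks that have a distance. These were the promoters of Irf1, Irf5, Stat2 and Stat3. The other 5 were distal. Irf2, whose gene spans chr8:46739732-46847458, had 3 intronic peaks, at 38.6, 49.9 and 71.8 kb downstream of its TSS. The Irf7 peak lay 2.6 kb upstream of the Irf7 TSS, at the transcript end of its neighbour Cdhr5, and the Stat6 peak lay 10.9 kb upstream in intergenic sequence.

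The authors merged peaks that had been called reproducibly in each condition, so each peak carries the conditions that called it. All 3 Irf2 peaks and the Irf5 promoter were called in RGFP966 + KLA alone, and the Irf1 promoter in Veh alone. The Stat2 and Stat3 promoters were called in Veh and KLA, the Irf7 peak in Veh and RGFP966 + KLA, and the Stat6 peak in KLA and RGFP966 + KLA. Over the whole table, 30.0% of peaks were called in RGFP966 + KLA alone and 8.25% in Veh alone. These 2 deepest libraries also formed the RGFP966 + KLA condition, and the part of depth in these calls was not tested. Calling favours peaks that are high in the calling conditions. Differences below that favour those conditions are therefore no independent support for a change.

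The sequences below are shown because they held a match to an IRF or STAT element or had the fitted differences with the smallest p-values under RGFP966 + KLA. They are plus-strand mm10 sequence of whole peaks, or of the central 300 bp where a peak is longer, with matches to the searched motifs in capitals. The Irf1 promoter peak (chr11:53769811-53770027) held a GAS element, the palindrome that STAT dimers read, 9 bp from its centre. The Irf7 peak (shown chr7:141268894-141269193) held an IRF element 72 bp from its centre. The Irf9 promoter peak of the NCoR f/f table (shown chr14:55603922-55604221) held a GAS element 57 bp from its centre. The Irf2 peak at 49.9 kb (shown chr8:46789493-46789792), the Stat2 promoter (chr10:128270320-128270568) and the Stat3 promoter (chr11:100939390-100939673) held no match.
Irf1 promoter: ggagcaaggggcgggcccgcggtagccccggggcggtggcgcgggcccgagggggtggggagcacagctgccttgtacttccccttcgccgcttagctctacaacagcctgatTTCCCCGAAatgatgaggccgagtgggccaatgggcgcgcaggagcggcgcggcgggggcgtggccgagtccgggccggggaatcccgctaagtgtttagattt
Irf7 upstream peak: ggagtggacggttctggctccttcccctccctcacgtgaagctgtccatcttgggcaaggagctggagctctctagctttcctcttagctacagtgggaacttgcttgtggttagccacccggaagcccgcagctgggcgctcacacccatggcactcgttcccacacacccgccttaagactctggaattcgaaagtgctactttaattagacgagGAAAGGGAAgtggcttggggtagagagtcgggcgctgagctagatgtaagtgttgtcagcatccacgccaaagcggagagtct
Irf9 promoter: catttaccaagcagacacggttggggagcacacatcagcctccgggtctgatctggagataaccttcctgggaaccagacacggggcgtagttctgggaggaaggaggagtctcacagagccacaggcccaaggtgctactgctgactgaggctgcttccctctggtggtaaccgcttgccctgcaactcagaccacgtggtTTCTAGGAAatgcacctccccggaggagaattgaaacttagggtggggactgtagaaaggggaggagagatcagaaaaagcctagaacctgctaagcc
Irf2 intronic peak: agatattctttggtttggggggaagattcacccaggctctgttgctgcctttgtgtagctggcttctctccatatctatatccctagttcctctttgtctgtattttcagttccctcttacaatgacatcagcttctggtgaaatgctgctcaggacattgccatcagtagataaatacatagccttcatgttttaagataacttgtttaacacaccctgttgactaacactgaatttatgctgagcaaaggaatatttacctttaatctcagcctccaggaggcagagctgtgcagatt
Stat2 promoter: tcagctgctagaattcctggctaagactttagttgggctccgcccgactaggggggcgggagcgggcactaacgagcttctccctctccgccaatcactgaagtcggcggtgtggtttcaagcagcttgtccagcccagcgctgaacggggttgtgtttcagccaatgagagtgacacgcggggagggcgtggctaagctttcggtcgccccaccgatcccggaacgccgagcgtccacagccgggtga
Stat3 promoter: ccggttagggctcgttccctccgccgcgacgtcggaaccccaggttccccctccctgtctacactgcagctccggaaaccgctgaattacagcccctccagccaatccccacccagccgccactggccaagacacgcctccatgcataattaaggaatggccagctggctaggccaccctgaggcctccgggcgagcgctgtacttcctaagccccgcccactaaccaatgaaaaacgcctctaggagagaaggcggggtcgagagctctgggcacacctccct

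Motifs were searched as strings on both strands in the central 200 bp of each peak. The IRF element GAAANNGAA was in 1 of the 9 WT peaks and in 5.89% of all WT peaks, and the GAS element TTCNNNGAA was in 1 of 9 and in 5.31%. The AP-1 element TGANTCA was in 2 of 9, the Irf5 promoter and the Irf2 peak at 71.8 kb, and in 18.2% of all. NFkB-p65 (GGANTTTCC, 1.66% of all) and PU.1 (GAGGAAGT, 7.52% of all) strings were in none of these 9 windows. A match describes letters, not binding. The GC content of the same windows ran from 38.5% at the Irf2 peak at 49.9 kb to 72.5% at the Irf1 promoter, with a median of 57.0% against 56.5% for all WT peaks.

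**Figure D1:**
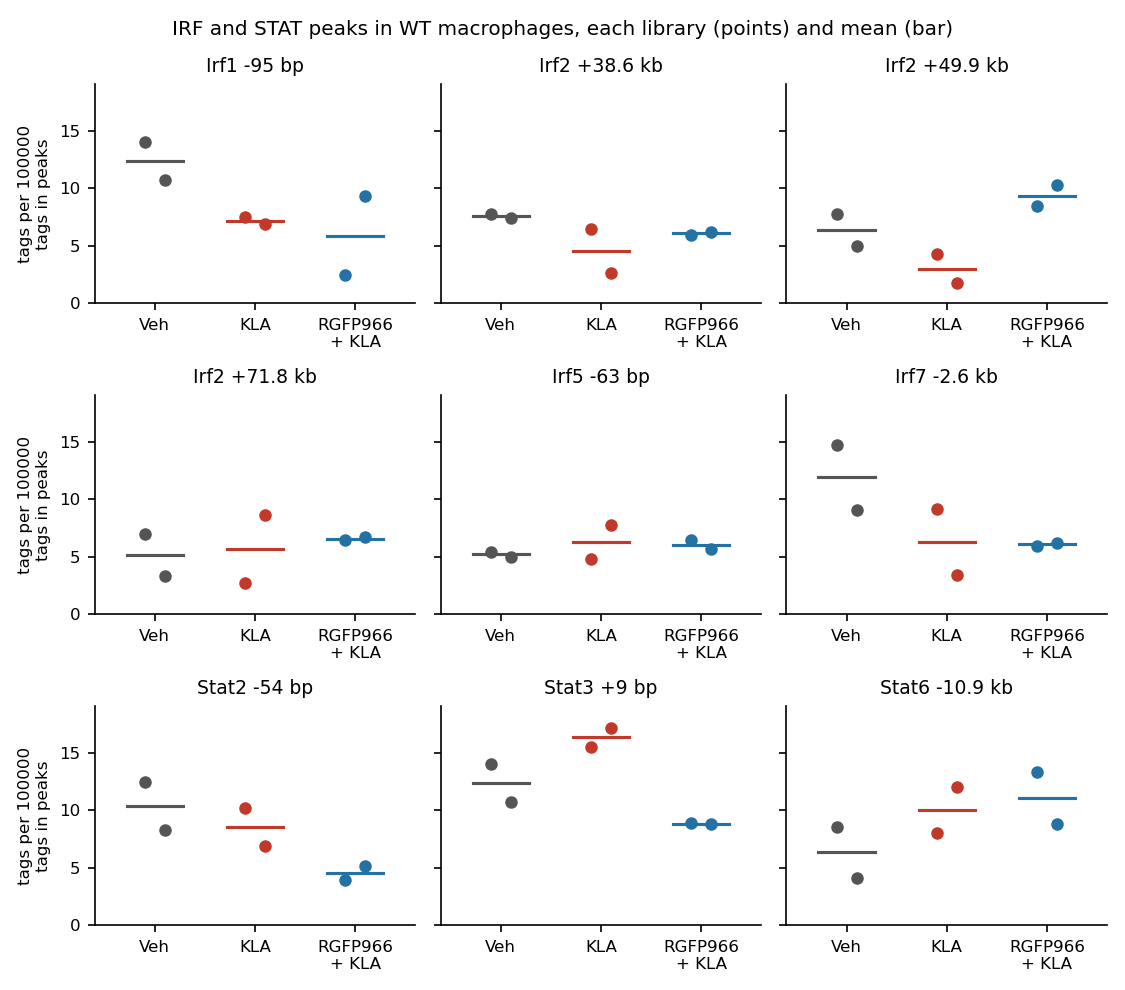
Tags per 100000 tags in peaks (y axis) at the 9 IRF and STAT peaks of the WT table in Veh, KLA and RGFP966 + KLA; points are single libraries and bars their mean, n = 2 per condition. Stat3 is highest in KLA and lowest in RGFP966 + KLA without overlap. The Irf2 peak at 49.9 kb is lowest in KLA and highest in RGFP966 + KLA, and the Irf1 libraries of RGFP966 + KLA lie far apart. Calling favours high values in the conditions that called a peak.

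No IRF or STAT peak passed the test in any WT comparison. Counts were fitted with edgeR across all 9698 peaks, and a peak was called at a Benjamini-Hochberg adjusted p under 0.05 and more than a 2-fold difference. For KLA against Veh, 0 of 9 were called by edgeR and 0 by DESeq2, with 0 at an unadjusted p under 0.05 by either, against 5.03% of all peaks called by edgeR. Between RGFP966 + KLA and KLA, 0 of 9 were called by either tool, with 3 at an unadjusted p under 0.05 by edgeR and 0 or 1 by DESeq2 depending on its size factors, against 0.34% of all peaks called by edgeR. Between RGFP966 + KLA and Veh, 0 of 9 were called by either tool, with 3 at an unadjusted p under 0.05 by edgeR and 0 by DESeq2, against 9.88% of all peaks called by edgeR. At such backgrounds a count of 0 among 9 peaks does not set these loci apart. Values below are tags per 100000 tags in peaks, differences are on the log2 scale with an approximate standard error (SE), and adjusted p-values are those of edgeR's quasi-likelihood test.

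Summed over all peaks of a gene within 100 kb, the result was the same. Of the 7 member genes, 0 were called at an adjusted p under 0.05 for KLA against Veh, where 4.3% of 6598 genes were called. For RGFP966 + KLA against KLA, 0 were called where 0.318% of genes were, and for RGFP966 + KLA against Veh 0 were called where 9.29% of genes were. At an unadjusted p under 0.05, edgeR gave 0, 3 and 3 member genes in these comparisons and DESeq2 gave 0 in each. DESeq2's own filter left the adjusted p of all 7 without a value in the last comparison. All of these genes other than Irf2 have a single WT peak, so only the sum for Irf2 adds to the peak values.

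Among the activating IRFs, Irf1, an interferon-inducible activator that carries a GAS element in its promoter sequence above, was most accessible in Veh. Only Veh called this peak, which favours high values there, so the order of conditions is no independent support for a change. The Irf1 promoter had 14.0 and 10.7 in the Veh libraries, 7.49 and 6.85 in KLA, and 2.47 and 9.27 in RGFP966 + KLA. Both KLA libraries and both RGFP966 + KLA libraries lay below both Veh libraries, while the RGFP966 + KLA libraries spanned those of KLA. The mean was 12.3 ± 2.28 (SD, n = 2) in Veh and 7.17 ± 0.447 (SD, n = 2) in KLA, a log2 difference of -0.77 (SE 0.42, adjusted p = 0.308). Against Veh, RGFP966 + KLA differed by -1.09 (SE 0.41, adjusted p = 0.0805). That value rested on replicate 1 of RGFP966 + KLA, with 5 tags: without replicate 2 it was -2.29 and passed the test (adjusted p = 0.0174), and without replicate 1 it was -0.42.

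Irf7, the interferon-inducible factor that amplifies type I interferon production, was represented in the WT table by its upstream peak. That peak had 14.7 and 9.08 in Veh, 9.09 and 3.43 in KLA, and 5.93 and 6.18 in RGFP966 + KLA. Veh and KLA libraries overlapped, whereas both RGFP966 + KLA libraries lay below both Veh libraries. The log2 difference was -0.79 (SE 0.41, adjusted p = 0.288) for KLA against Veh and -0.98 (SE 0.40, adjusted p = 0.108) for RGFP966 + KLA against Veh. The KLA libraries differed 2.65-fold from each other, with 17 and 4 tags. The KLA difference was -1.78 without KLA replicate 1, -0.40 without KLA replicate 2 and -0.39 without Veh replicate 1, and the other was -0.58 without Veh replicate 1.

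Irf5, the factor linked to inflammatory cytokine genes, had similar values in the 3 conditions at its internal promoter, with overlap between KLA and both others. Its peak had 5.43 and 4.95 in Veh, 4.81 and 7.71 in KLA, and 6.42 and 5.66 in RGFP966 + KLA. The largest of its log2 differences was 0.22 for RGFP966 + KLA against Veh, with a 95% interval of -0.73 to 1.16 and an adjusted p of 0.825. As a fold, that interval runs from 0.605 to 2.23.

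Irf2, the repressor that competes with IRF1, was lowest in KLA when its 3 intronic peaks were added up. The summed share was 22.5 and 15.7 in Veh, 13.4 and 12.8 in KLA, and 20.7 and 23.2 in RGFP966 + KLA. Both KLA libraries lay below all of the others. The log2 difference was -0.54 (SE 0.31, adjusted p = 0.352) for KLA against Veh and 0.73 (SE 0.27, adjusted p = 0.185) for RGFP966 + KLA against KLA, a 1.66-fold difference with a 95% interval of 1.14 to 2.41 before adjustment for the number of genes tested. Without Veh replicate 1 the KLA against Veh difference was -0.25. All 3 peaks were called in RGFP966 + KLA alone, which favours high values there. The interval for RGFP966 + KLA against KLA is therefore no independent support for a difference.

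The 3 Irf2 peaks, all called in RGFP966 + KLA alone, did not share the pattern of the sum evenly. The peak at 49.9 kb, the sequence shown above, had 7.76 and 4.95 in Veh, 4.28 and 1.71 in KLA, and 8.39 and 10.3 in RGFP966 + KLA. The 3 conditions did not overlap there, and its difference between RGFP966 + KLA and KLA was the largest of any member peak at 1.48 (SE 0.46, adjusted p = 0.118), with 8 and 2 tags in the KLA libraries. That difference was 2.39 without KLA replicate 1 and 1.11 without KLA replicate 2. The peak at 38.6 kb had 7.76 and 7.43 in Veh, 6.42 and 2.57 in KLA, and 5.93 and 6.18 in RGFP966 + KLA, with a KLA against Veh difference of -0.61 (SE 0.48, adjusted p = 0.531) that became -1.53 without KLA replicate 1 and -0.24 without KLA replicate 2. The peak at 71.8 kb had 6.98 and 3.30 in Veh, 2.67 and 8.57 in KLA, and 6.42 and 6.69 in RGFP966 + KLA. Its KLA libraries were the lowest and the highest of all 6, and its fitted KLA against Veh difference of -0.073 (adjusted p = 0.966) had the opposite sign to the difference of the means.

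The promoter of Irf2 itself is outside these sums. A peak 193 bp from the Irf2 start, annotated to an Irf2 transcript, was assigned by the table to the divergent gene Gm16675. It had 10.9 and 6.61 in Veh, 7.49 and 9.42 in KLA, and 4.94 and 5.66 in RGFP966 + KLA. Veh and KLA overlapped, and both RGFP966 + KLA libraries lay below them, with a log2 difference of -0.72 against Veh (adjusted p = 0.294).

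Just inside the 100 kb limit lay the Irf2 peak at 71.8 kb, and just outside lay 2 more Irf2 peaks, in introns at 103.1 and 105.5 kb. The first had 6.20 and 8.26 in Veh, 5.35 and 5.14 in KLA, and 2.96 and 2.06 in RGFP966 + KLA. The second had 8.53 and 8.26 in Veh, 2.67 and 6.85 in KLA, and 0.494 and 1.54 in RGFP966 + KLA, the last from 1 and 3 tags. At both, Veh was highest and RGFP966 + KLA lowest without overlap, unlike the 3 peaks inside the limit. Both of these outer peaks were called in Veh alone, and the 3 inside the limit in RGFP966 + KLA alone. Calling favours high values in the calling condition, so this contrast is no test of a difference.

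**Figure D2:**
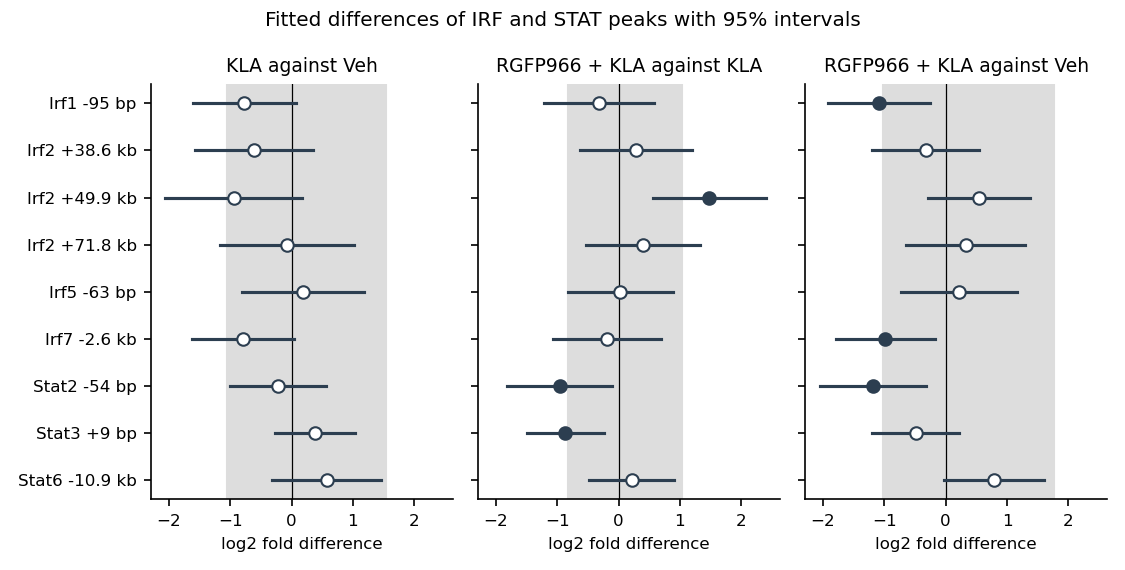
Fitted log2 differences (x axis) with 95% intervals for the 9 IRF and STAT peaks in the 3 WT comparisons; filled points have an unadjusted p under 0.05, none has an adjusted p under 0.05, and grey bands span the 5th to 95th percentile of all 9698 peaks. Under RGFP966 + KLA the Irf2 peak at 49.9 kb lies above KLA at 1.48, and the Stat2 and Stat3 promoters lie below KLA at -0.96 and -0.87. Calling favours these directions at all 3 peaks.

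Among the STATs, Stat3 was highest in KLA. Its promoter had 14.0 and 10.7 in Veh, 15.5 and 17.1 in KLA, and 8.89 and 8.75 in RGFP966 + KLA. The 3 conditions did not overlap, with KLA highest and RGFP966 + KLA lowest. Veh and KLA called this peak and RGFP966 + KLA did not, which favours lower values in RGFP966 + KLA. The low position of RGFP966 + KLA is therefore no independent support for a change. The mean in KLA was 16.3 ± 1.15 (SD, n = 2) and in RGFP966 + KLA 8.82 ± 0.0950 (SD, n = 2), a log2 difference of -0.87 (SE 0.31, adjusted p = 0.187). For KLA against Veh it was 0.38 (SE 0.32, adjusted p = 0.578), and 0.21 without Veh replicate 2 and 0.59 without Veh replicate 1. STAT3 serves the anti-inflammatory IL-10 response as well as IL-6, both of which follow TLR4 activation.

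Stat2, the partner of IRF9, was lowest in RGFP966 + KLA. Its promoter had 12.4 and 8.26 in Veh, 10.2 and 6.85 in KLA, and 3.95 and 5.15 in RGFP966 + KLA. Veh and KLA overlapped, and both RGFP966 + KLA libraries lay below all 4 of the others. The log2 difference was -1.18 (SE 0.43, adjusted p = 0.0664) against Veh and -0.96 (SE 0.43, adjusted p = 0.300) against KLA. The first had the smallest adjusted p of any member peak in any comparison, and the second was -0.59 without KLA replicate 1. This peak was called in Veh and KLA but not in RGFP966 + KLA, which favours lower values in RGFP966 + KLA. Both differences are therefore no independent support for a change.

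Stat6, the transducer of IL-4 and IL-13, had a mean that was higher in both treated conditions than in Veh, unlike Stat2 and Stat3. Its peak was called in both treated conditions and not in Veh, whereas the Stat2 and Stat3 peaks were called in Veh. Calling favours this pattern, which is therefore no independent support for a change. Its upstream peak had 8.53 and 4.13 in Veh, 8.02 and 12.0 in KLA, and 13.3 and 8.75 in RGFP966 + KLA. KLA overlapped both other conditions, while RGFP966 + KLA lay above Veh by a narrow margin. The log2 difference was 0.57 (SE 0.44, adjusted p = 0.528) for KLA against Veh and 0.79 (SE 0.41, adjusted p = 0.217) for RGFP966 + KLA against Veh. They were 1.19 and 1.41 without Veh replicate 1, and 0.16 and 0.38 without Veh replicate 2. Leaving out a KLA library moved the first to between 0.32 and 0.90, and leaving out replicate 1 of RGFP966 + KLA moved the second to 0.45.

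Taken by direction, 3 members had fitted differences above 0 and 6 below 0 for KLA against Veh, with a median of -0.22, against a median of 0.019 over all peaks. Between RGFP966 + KLA and KLA, 5 lay above 0 and 4 below, with a median of 0.029 against 0.030 over all peaks. Between RGFP966 + KLA and Veh, 4 lay above 0 and 5 below, with a median of -0.33 against 0.044. The libraries of the 2 conditions did not overlap at 4 of 9 peaks for KLA against Veh (47.9% of all peaks), at 3 of 9 for RGFP966 + KLA against KLA (45.8% of all peaks), and at 8 of 9 for RGFP966 + KLA against Veh (54.7% of all peaks). Of Veh and RGFP966 + KLA, only 1 had called each member peak, other than the Irf7 peak, which both called. Calling favours a separation of these conditions, so the last count is no independent support for a change. The Irf2 peak at 38.6 kb, however, was lower in RGFP966 + KLA, which called it. Libraries of 1 condition often differed as much as conditions did: their shares differed more than 2-fold from each other at 2 of the 9 peaks in Veh, at 4 in KLA and at 1 in RGFP966 + KLA, against 15.5%, 12.5% and 5.52% of all peaks with a tag in both libraries.

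Levels were compared between genes only per kb of peak, as tags per 100000 tags in peaks and per kb. In Veh the order was Irf1 (56.9), Stat3 (43.5), Stat2 (41.5), Irf7 (38.1), Irf5 (25.8), Stat6 (24.1) and Irf2 (23.4). Neighbours overlapped between libraries except Irf1 and Stat3, whose nearest libraries were at 49.5 and 49.1, and Irf7 and Irf5. In KLA, Stat3 (57.5) came first, apart from the rest, then Stat6 (38.1), Stat2 (34.2), Irf1 (33.0), Irf5 (31.1), Irf7 (20.0) and Irf2 (16.04), each overlapping its neighbours. In RGFP966 + KLA, Stat6 (42.0) came first, then Stat3 (31.1), Irf5 (30.1), Irf1 (27.0), Irf2 (26.9), Irf7 (19.3) and Stat2 (18.3). In that condition Stat6 stood apart from Stat3, and Irf2 from Irf7, while the other neighbours overlapped. The median peak of the whole table had 30.6 to 31.6 on this scale in the 6 libraries, so the members were ordinary peaks in height.

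The NCoR f/f table, which merged peaks of 4 conditions and was sequenced more deeply (372367 and 509741 tags in peaks in the 2 Veh libraries), placed more of these loci on the map. All 9 WT member peaks overlapped an NCoR f/f member peak, whereas 9 of the 21 NCoR f/f member peaks (42.9%) overlapped a WT one. The added sites included the promoters of Irf7, Irf9 and Stat6, a second Irf1 promoter peak, an intronic Irf2 site at 1.2 kb, and upstream sites of Irf5. The 4 conditions were Veh and KLA in NCoR f/f and in NCoR-knockout BMDMs. Of the 21 peaks, 13 (61.9%) were called in NCoR f/f Veh, against 62.2% of all. The Irf7 promoter and the Irf2 site at 1.2 kb were called only under KLA. The second Irf1 promoter peak was called only in knockout BMDMs under KLA, as was an Irf2 peak at 53.1 kb. Within 2 kb of a TSS lay 12 of the 21, or 57.1% (Wilson 95% interval 36.5 to 75.5%), against 47.8% of all peaks of this table that have a distance. With 1 condition and another set of peaks, no test against the WT libraries was made.

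**Figure D3:**
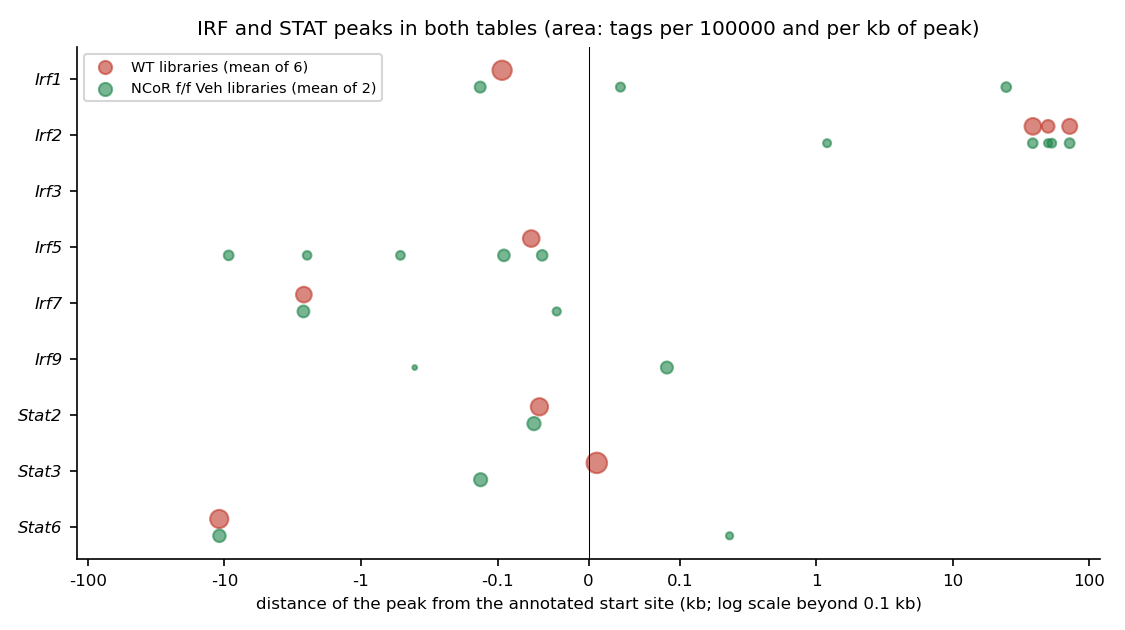
Distance of each IRF and STAT peak from its annotated start site (x axis, kb, log scale beyond 0.1 kb) by gene (y axis) in the WT table (upper dots, 9 peaks) and the NCoR f/f table (lower dots, 21 peaks); dot area is the mean tags per 100000 and per kb of peak, which is lower in the NCoR f/f table because its tags are spread over 24867 peaks. Irf3 has no peak in either table and Irf9 has peaks in the NCoR f/f table alone.

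In the NCoR f/f Veh libraries the Stat3 promoter, in a peak of 571 bp, held 36 and 56 tags, or 9.67 and 10.99 tags per 100000 tags in peaks. The Stat2 promoter had 4.30 and 6.08. The Irf9 promoter peak shown above had 4.30 and 5.30, and the other Irf9 peak, 404 bp upstream of the start, had 3 and 2 tags. The shared Irf1 promoter peak had 3.76 and 3.14, and the Irf7 promoter had 2.15 and 2.75 against 3.76 and 4.90 at the Irf7 upstream peak. Per kb of peak and summed over peaks, Stat2 (18.3) and Stat3 (18.1) came first and overlapped, and Irf7 (10.5), Irf5 (10.5), Irf1 (10.3), Irf9 (9.34), Irf2 (7.90) and Stat6 (7.81) followed. Stat3 and Irf7 did not overlap, with libraries from 16.9 to 19.2 and from 9.19 to 11.9, whereas each later neighbour overlapped the one before it.

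At Irf5, 5 NCoR f/f peaks lined both annotated promoters and the sequence upstream. The promoter peak that is shared with the WT table had 4.03 and 4.71, and the peak at the upstream promoter, 51 bp from its TSS, had the same 15 and 24 tags. The peak 514 bp upstream of the shared promoter had 4 and 16 tags, a 2.92-fold difference between the libraries. At Irf2, the peaks at 1.2, 49.9 and 53.1 kb held 2.05 to 2.19 times the share of tags in replicate 2 that they held in replicate 1, and the peak at 71.7 kb 1.62 times, while the peak at 38.5 kb had 2.95 and 2.75. Replicate 2 was also the deeper library, and the part of depth in this was not tested.

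Irf3 differs from the other genes in having no assigned peak. The nearest peak to the Irf3 start (gene at chr7:44997648-45002848) lay 10949 bp away in the WT table and 10914 bp away in the NCoR f/f table, and was assigned to Gm15545. For Irf9 (gene at chr14:55603571-55610030) the nearest WT peak lay 11857 bp away at Rnf31. A missing peak means that none was called reproducibly and merged, not that the chromatin was closed.

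Other genes of the interferon and JAK-STAT pathways were read from a list of 45 gene symbols, of which Tmem173 and Sting1 name the same gene. Of the 45 symbols, 25 had tested tags in the WT table. For KLA against Veh, 2 of the 25 were called, both lower, where 4.3% of all genes were called. For RGFP966 + KLA against Veh, 2 were called, 1 higher and 1 lower, where 9.29% were. With RGFP966 + KLA against KLA, neither tool called any (0 of 25 each), and 2 had an unadjusted p under 0.05 by edgeR and 0 by DESeq2, where 0.318% of all genes were called. DESeq2 called none of the 25 in the other comparisons either. These shares are near the background of all genes. By role, the calls were on 1 of 2 IRF2-binding cofactors, 1 of 8 receptors and 1 of 5 inhibitors, and on none of the 1 tested IRF and STAT relative, 5 kinases, 3 adaptors and 1 ligand.

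Il6st encodes gp130, the shared receptor subunit that signals through STAT3. Its 2 peaks together had 25.6 and 27.2 tags per 100000 tags in peaks in Veh, 9.09 and 20.6 in KLA, and 10.9 and 14.9 in RGFP966 + KLA. Both treated conditions lay below Veh, and the summed share fell with KLA by 0.96 on the log2 scale (SE 0.29, adjusted p = 0.0375) and under RGFP966 + KLA by 1.03 against Veh (SE 0.28, adjusted p = 0.00796). The KLA difference rested on replicate 1: without it the difference was -0.36 (adjusted p = 0.696). Leaving out either Veh library also ended both calls, at adjusted p = 0.121 and 0.151 for KLA and 0.0566 and 0.0661 for RGFP966 + KLA, as did leaving out replicate 1 of RGFP966 + KLA for the latter (adjusted p = 0.122).

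Irf2bp2 encodes a corepressor that binds IRF2. Its 6 peaks had 62.8 and 64.4 in Veh, 44.4 and 34.3 in KLA, and 58.3 and 51.0 in RGFP966 + KLA. The summed share fell with KLA by 0.65 (SE 0.20, adjusted p = 0.0322). Leaving out any Veh or KLA library, or replicate 2 of RGFP966 + KLA, ended the call (adjusted p = 0.0501 to 0.207). KLA was lowest, as in the sum over Irf2, and for RGFP966 + KLA against KLA Irf2bp2 differed by 0.44 (adjusted p = 0.252).

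Socs3 encodes the feedback inhibitor of gp130 and STAT3 signalling. Its 4 peaks had 20.2 and 25.6 in Veh, 29.9 and 44.5 in KLA, and 36.5 and 37.1 in RGFP966 + KLA. Against Veh the summed share rose under RGFP966 + KLA by 0.69 (SE 0.23, adjusted p = 0.0380), while the difference for KLA was 0.64 (SE 0.24, adjusted p = 0.106). Leaving out either library of Veh or of RGFP966 + KLA ended the call (adjusted p = 0.0618 to 0.326). In an alternative setting with the peaks within 2 kb of the TSS alone, the KLA difference was 2.56 and passed the test (adjusted p = 0.00197). The sum over all 4 peaks did not pass for KLA. Which conditions called the peaks near the TSS is not given here, so a part of selection by calling in that value was not tested.

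**Figure D4:**
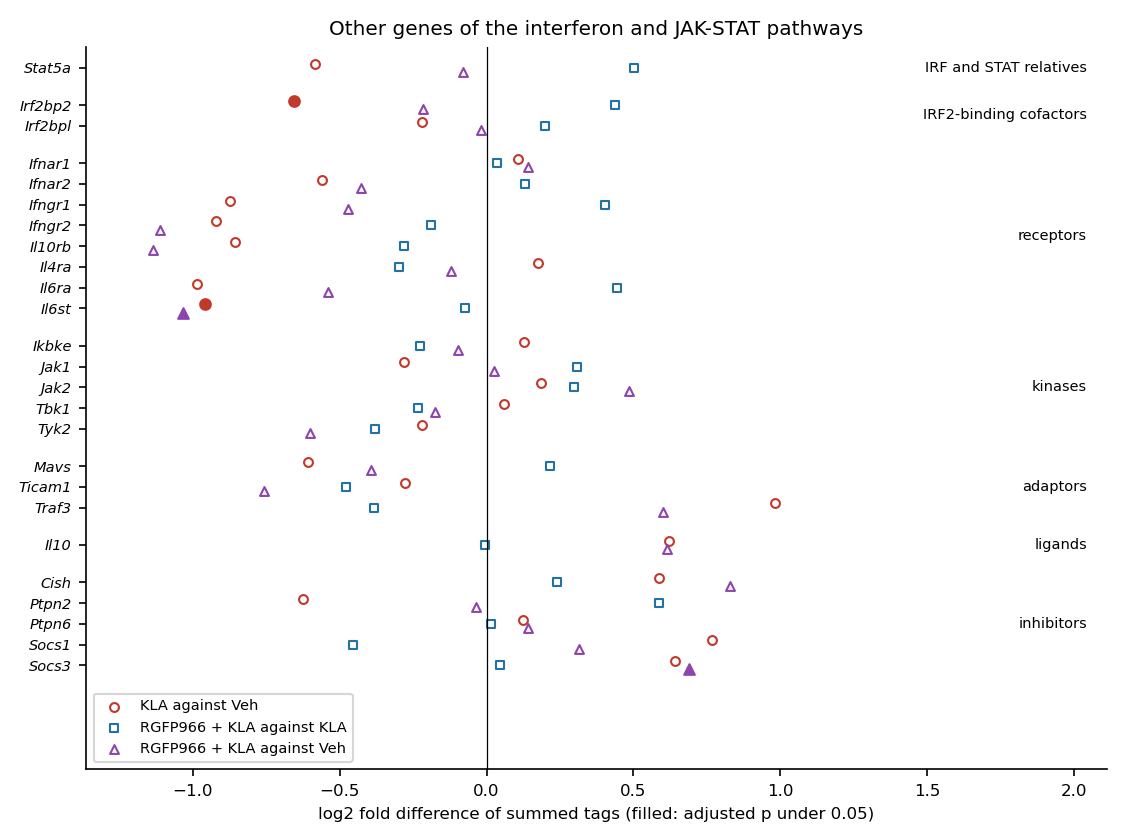
Fitted log2 differences of tags summed per gene (x axis) for the 25 tested pathway genes, grouped by role, in the 3 WT comparisons; filled symbols have an adjusted p under 0.05. Filled symbols are Irf2bp2 and Il6st for KLA against Veh, and Il6st and Socs3 for RGFP966 + KLA against Veh.

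The genes whose summed shares ran most like those of a member were found by Pearson's r of log2 shares over the 6 WT libraries, among 297 genes with a mean of at least 50 tags. For Irf2 these were Pcf11 (r = 0.99) and Zfhx3 (r = 0.97), for Stat3 Rassf4 (r = 0.97) and C630043F03Rik (r = 0.97), and for Stat6 Tmem218 (r = 0.97) and Gm10791 (r = 0.96). The points are 6 libraries of 3 conditions and share their depths, and the best of 297 values is high by selection, so these are descriptions.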

How the data were processed

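ATAC-seq was analysed from 8 libraries, 6 of WT BMDMs and 2 of NCoR f/f BMDMs. By the paper's methods and the file headers, the authors used Bowtie2 for mapping (mm10) and HOMER for peak calling, retained IDR peaks (reproducible between replicates), merged these over conditions and deposited raw counts of tags per peak, unadjusted for depth and with at most 3 tags per position. DESeq2 is also named in the submitters' processing notes. Versions are not given in the sources used here. Other columns of the tables hold annotation. The cap of 3 tags limits high peaks, and merging makes a peak depend on the conditions called.

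Tags were divided by the total tags in peaks of the library and given per 100000. Counts as deposited were fitted with edgeR 4.0.16 (glmQLFit, glmQLFTest) in R 4.3.3 over all peaks, and over all genes, that reached 4 tags in some library, with library size as total tags in peaks, factors of 1, and all 6 WT libraries in 1 model without covariates. SEs were derived from the F statistic and are approximate, and intervals use 95% of the t distribution on the moderated degrees of freedom. DESeq2 1.42.0 was the second tool. The edgeR fits of peaks and of genes were tested on simulated data, and DESeq2 was not. Changes were simulated in better-covered features, for KLA against Veh. Of 2-fold changes, 19% were recovered for peaks and 26% for genes. Of 4-fold changes, 75% and 81% were recovered. The tables were analysed apart, since their peaks and library dates in the labels differ. Member peaks, the pathway, marker and motif lists and the naming rule were chosen with earlier results of these data known. Named were all member genes, for each the peak nearest its TSS and that with the smallest adjusted p for KLA against Veh, the called pathway genes, and the 2 genes most like each of the 3 members with the most tags; the remaining member peaks are described for completeness. Motifs were read from GRCm38.p6, the assembly behind mm10, and gene positions from GENCODE vM21. A gene's peaks can include ones shared with a neighbour. A gene of the pathway list is not reported here. RNA-seq and ChIP-seq of the study were not analysed here.

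Same-numbered WT libraries share only a number, so no block was used. The alternatives were TMM factors, all tags of the library as depth, DESeq2, other filters, the 4 libraries compared alone, a replicate block, each library left out, a 1.5-fold threshold and other distances to the TSS.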

Additional observations from a re-analysis of the deposited data

How the results depend on the processing

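Of the 95 recomputations of the 6 counts of called members, 93 gave 0; DESeq2 with its own size factors gave no adjusted p for any member gene in RGFP966 + KLA against Veh. The exceptions were for RGFP966 + KLA against Veh without replicate 2 of RGFP966 + KLA, where 1 peak and 1 gene, Irf1 in both, were called; over the libraries left out, these counts ran from 0 to 1, and in the other comparisons they stayed at 0. The replicate block gave 0 calls in all 6, with smallest adjusted p-values of 0.226, 0.0979 and 0.0547 for the peaks. Deviations of same-numbered libraries had r = 0.016 to 0.023 over 9698 peaks. With so few tags per peak, counting error can hide shared deviations, so these values cannot show whether the libraries were paired. Counts of all peaks called depend on the tool: DESeq2 with its own size factors called 0 of all peaks in each comparison, where edgeR called 488, 33 and 958, and 18, 0 and 5 genes, where edgeR called 284, 21 and 613; the cause was not tested. Since DESeq2 called almost no peak at this depth, its 0 for the members says little.

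Single values that changed sign were all uncalled, and their cause was not tested. For KLA against Veh, the Irf2 peak at 71.8 kb was 0.033 and 0.048 by DESeq2 with own size factors and with total tags, and ran from -0.94 to 0.71 over libraries left out, Stat2 from -0.60 to 0.11 and Irf5 from -0.11 to 0.56. For RGFP966 + KLA against KLA, Irf5 was -0.012 with TMM factors and -0.050 and -0.018 by DESeq2, and over libraries left out ran from -0.35 to 0.33, Irf1 from -1.52 to 0.35, Stat6 from -0.12 to 0.48, Irf7 from -0.58 to 0.81, and the Irf2 peaks at 71.8 and 38.6 kb from -0.38 to 1.27 and from -0.084 to 1.21. For RGFP966 + KLA against Veh, the Irf2 peak at 71.8 kb ran from -0.090 to 0.97 over libraries left out, and the sum over Irf2 from -0.036 to 0.48, and with peaks at any distance it was -0.45. The calls of Il6st, Irf2bp2 and Socs3 were also lost by DESeq2 (which gave Il6st no adjusted p for RGFP966 + KLA against Veh with its own size factors) and with all tags of the library as depth, and that of Socs3 with TMM factors (adjusted p = 0.0523). Of the other single values, 446 kept direction and side of the threshold.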

Other observations

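The Irf2 peak at 105.5 kb, which lies outside the 100 kb window and was singled out after its values were seen, passed the fit across all peaks for RGFP966 + KLA against Veh, with a log2 difference of -2.96 (95% interval -4.15 to -1.78, edgeR adjusted p = 0.000824). That peak was called in Veh alone and had 1 and 3 tags in the RGFP966 + KLA libraries. Its selection favours high Veh values, so the fit is no independent support for a difference. The neighbouring peak at 103.1 kb, also called in Veh alone, differed by -1.49 in the same comparison (edgeR adjusted p = 0.0570). Both sit near the 3' end of Irf2, and the members that the window keeps at this gene, between 38.6 and 71.8 kb, differed by -0.33 to 0.54 there. The window of 100 kb thus decides whether the sum over Irf2 is 0.19 higher or 0.45 lower (log2) in RGFP966 + KLA than in Veh, neither of which passed the test (adjusted p = 0.712 and 0.176).

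In the NCoR f/f table a further Irf2 peak at 112.1 kb, in intergenic sequence and beyond the window as well, had 13 tags in each Veh library.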
